A study of Homo sapiens with 12 samples.

Results

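Baseline messenger RNA was described in parental BT474 cells kept in DMSO, the solvent control, using all 3 libraries of that group out of 12 in the series. BT474 is an established line of human breast carcinoma that carries an amplified ERBB2 (HER2) gene and expresses hormone receptors. The libraries were taken by their labels (genotype Parental, treatment DMSO), not by any measured value. The labels say DMSO rather than untreated, and they give no exposure time for the solvent. Cells grew in RPMI 1640 with 10% fetal bovine serum and 1% penicillin-streptomycin. Their labels give neither the BRD8 knockout nor neratinib, the ErbB kinase inhibitor, which other groups of the series carry or received, and those groups were not used. The labels do not say whether the 3 replicates came from separate cultures, so the spread given here may be technical. No groups were compared and no test was run. Every value is a level, given as mean ± SD over the 3 libraries.

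Luminal cells line the ducts and lobules of the breast and secrete, while basal or myoepithelial cells surround them. Luminal identity is held by transcription factors such as GATA3 and FOXA1 and is read from the simple-epithelial keratins KRT8, KRT18 and KRT19. Oestrogen and progesterone receptors are ligand-activated factors of luminal cells. HER2 is a receptor tyrosine kinase with no known ligand that signals in pairs with the other ErbB receptors, and its gene lies in a gene-dense part of chromosome arm 17q that is amplified together with its neighbours in HER2-positive cancers.

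The libraries held 41064117, 38301779 and 38713310 counts over named genes. Per-million counts (CPM) are counts divided by that total and scaled. Levels of different genes were mainly compared per length, as per-million transcripts (TPM). TPM is counts divided by exon length and scaled to the same sum in each library. Ranks are among 19053 nuclear protein-coding genes. A gene was counted as detected at a mean of at least 1 CPM. That threshold has no length correction, so a short gene can miss it at a TPM at which a long gene passes. Titin, TTN, passed at 0.145 TPM, and the adipocyte gene CIDEC missed it at 1.47 TPM. Detected genes numbered 13094 of 27814, with 13047, 13088 and 13093 at that level in the single libraries. A further 7140 genes had no count in any library, where 3 counts of the pooled total correspond to 0.0254 CPM, and this limit covers counting error only. Of the nuclear protein-coding genes, 11967 (62.8%) were detected, 2616 (13.7%) had no count and 103 stood at 1000 TPM or more. The median over all of them was 6.66 TPM.

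Expression was spread over many genes. The 10 highest genes took 7.19% ± 0.16 of counts, the 100 highest took 21.4% ± 0.294 and 860 genes held 50%. Ribosomal protein genes took 6.38%, mitochondrially encoded genes 2.97% and long non-coding RNAs 0.695%. Per length, the highest nuclear protein-coding gene was RPL19, a protein of the large ribosomal subunit, at 26902, 25333 and 24428 TPM in the 3 libraries. It was followed by the cytoplasmic actin ACTG1 at 10530.5 ± 94.8 TPM and by TMSB10, a thymosin that binds actin monomers, at 10145 ± 124 TPM. RPL19 stood 41.2 times above the ribosomal protein median, and no library came near the level of the next gene. The other genes among the 20 highest included ACTB, GAPDH, EEF1A1, TMSB4X, FTH1, COX8A, KRT19, RPL41, PSMB3, RPL23, UBB, RPL8, ERBB2, HSPA8, RPS27 and RPL7A, between 2844 ± 4.49 TPM for RPL7A and 8726 ± 252 TPM for ACTB. Of those named, all but KRT19 and ERBB2 are genes of the cytoskeleton, glycolysis, ubiquitin, iron storage, protein synthesis, respiration or protein folding that most cells use, and KRT19 and ERBB2 are genes of epithelial cells.

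The labelled identity was checked against its 5 markers. ERBB2 had 7971, 7959 and 7933 CPM in the 3 libraries and 3137 ± 13.2 TPM, rank 17, in the top 0.0892% of nuclear protein-coding genes. KRT8, a type II keratin of simple epithelium, had 3422, 3417 and 3416 CPM and 2022 ± 6.34 TPM (rank 38), and its partner KRT18 had 999, 1021 and 1027 CPM and 1285 ± 15.6 TPM (rank 77). Both hormone receptor genes were detected far lower on the scale. PGR, the progesterone receptor, had 77.9, 77.4 and 77.5 CPM and 20.5 ± 0.124 TPM (rank 6634), and ESR1, oestrogen receptor alpha, had 29.8, 30.1 and 30.4 CPM and 8.84 ± 0.0671 TPM (rank 8955). All 5 markers were thus present in every library, with both receptors below the median level of detected genes, 24.8 TPM, and the keratins and ERBB2 far above it. The length of the exon union depresses levels of genes with long or many transcripts, and with the longest transcript as length the ranks became 10 for ERBB2, 20 for KRT8, 69 for KRT18, 7251 for PGR and 7797 for ESR1. At a read length of 50 bases, 24.5% of the distinct 50-base stretches of KRT18 and 16.1% of KRT8 also occur in transcripts of other genes, against 6.17% for ERBB2, so the keratin counts are less certain.

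**Figure D1:**
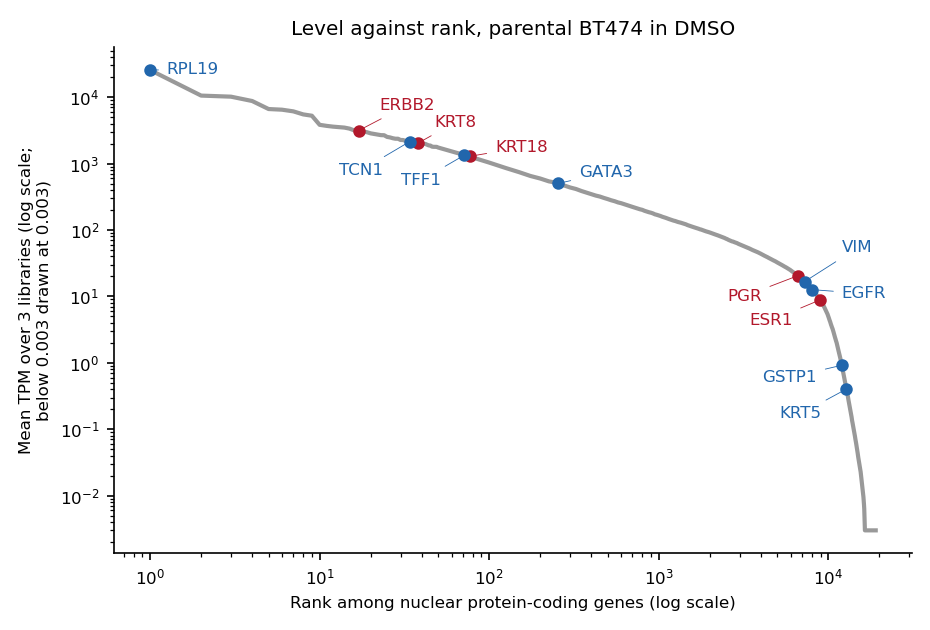
Mean TPM over the 3 parental DMSO libraries (log scale; values below 0.003 are drawn at 0.003) against rank among 19053 nuclear protein-coding genes (log scale); the grey line is all genes, red points are the 5 markers of the line and blue points are other named genes. ERBB2, KRT8 and KRT18 lie among the 100 highest genes, while PGR and ESR1 lie at ranks 6634 and 8955 and KRT5 and GSTP1 lie below 1 TPM.

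Many genes around ERBB2 were high. The window of 50 neighbouring protein-coding genes from TBC1D3C to CASC3, on chromosome 17 from 38057693 to 40172183 (GENCODE 29, GRCh38), summed to 51109 TPM, the highest sum of 17884 overlapping windows. RPL19 alone held 25554 ± 1251 TPM of that sum. In the window 24 of the 50 genes stood at 100 TPM or more, against 1801 of all 19053 nuclear protein-coding genes. Promoter sequences of 4 of the high genes, and of the silent gene NEUROD2 that lies among them, are shown to set their CG content side by side. RPL19, the highest of these genes, has a stretch of only 41.3% GC, but its longer promoter window is among the CpG-rich ones described below. Each run is the 150 bases before the RefSeq start (GRCh38.p14), 5′ to 3′, with CG dinucleotides in capitals. The first 4 lie on the plus strand at chr17:39687944-39688093, chr17:39200133-39200282, chr17:38752591-38752740 and chr17:39980657-39980806, and NEUROD2 lies on the minus strand at chr17:39607921-39608070.
ERBB2: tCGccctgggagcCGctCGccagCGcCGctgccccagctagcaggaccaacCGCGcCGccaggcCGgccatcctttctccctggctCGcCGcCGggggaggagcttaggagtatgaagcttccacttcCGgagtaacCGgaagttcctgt
RPL19: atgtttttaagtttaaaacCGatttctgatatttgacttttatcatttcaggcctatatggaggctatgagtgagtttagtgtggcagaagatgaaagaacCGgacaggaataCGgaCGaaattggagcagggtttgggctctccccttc
PSMB3: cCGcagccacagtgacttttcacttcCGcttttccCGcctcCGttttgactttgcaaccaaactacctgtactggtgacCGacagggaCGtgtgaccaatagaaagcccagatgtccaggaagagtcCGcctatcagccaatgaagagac
PSMD3: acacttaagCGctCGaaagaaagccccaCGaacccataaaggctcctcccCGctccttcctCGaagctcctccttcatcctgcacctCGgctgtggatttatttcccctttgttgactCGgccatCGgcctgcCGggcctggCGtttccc
NEUROD2: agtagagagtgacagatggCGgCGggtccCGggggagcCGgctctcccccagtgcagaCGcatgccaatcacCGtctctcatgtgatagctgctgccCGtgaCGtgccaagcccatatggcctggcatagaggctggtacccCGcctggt
The ERBB2 stretch held 14 CG dinucleotides, PSMD3 10, NEUROD2 9, PSMB3 7 and RPL19 4.

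The high genes of that window have varied roles, though some of them belong to the same complex. After RPL19 came PSMB3, a proteasome core subunit, at 3521 ± 42.2 TPM, RPL23, another large-subunit ribosomal protein, at 3473 ± 102 TPM, then ERBB2, and LASP1, an actin-binding adaptor, at 2666 ± 47.3 TPM. PSMD3, a subunit of the proteasome cap, had 1971 ± 25.7 TPM, and the mitochondrial ribosomal protein MRPL45 had 1271 ± 4.61 TPM. Closer to ERBB2, MIEN1 had 1278 ± 16.7 TPM and PGAP3, which remodels lipid anchors, had 836 ± 7.99 TPM. Both lie on the other strand and their annotated spans overlap that of ERBB2 in part, where an unstranded kit cannot tell reads apart. How the counting treated such reads was not tested, and both levels are uncertain to that extent. The cholesterol-binding protein STARD3 had 742 ± 0.405 TPM and the adaptor GRB7, which binds activated receptors, had 467 ± 12.1 TPM. Between ERBB2 and PSMD3, ORMDL3, a regulator of sphingolipid synthesis, had 1145 ± 3.57 TPM. MED1 and MED24, subunits of the Mediator complex that links factors to RNA polymerase II, had 831 ± 11.5 and 529 ± 2.13 TPM, and the transcriptional kinase CDK12 had 249 ± 4.62 TPM.

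Genes known from other tissues in the same stretch ranged from 0 to over 100 TPM. NEUROD2, a neuronal factor, had 11, 9 and 9 counts in the 3 libraries, or 0.245 ± 0.0198 CPM, and it lies between CDK12 and ERBB2. CSF3, the granulocyte growth factor beside PSMD3, had 1, 2 and 3 counts, and the testis genes FBXO47 and ZPBP2 had none. PPP1R1B, TCAP and PNMT, known from neurons, muscle and adrenal medulla and lying between NEUROD2 and ERBB2, were detected at 13.9 ± 0.19, 16.6 ± 0.757 and 37.5 ± 2.57 TPM. The lymphoid factor IKZF3 had 49.7 ± 2.01 TPM and SRCIN1, known from neurons, 106 ± 1.68 TPM. Of the 28 genes listed for the amplified segment, 23 were detected, with a median of 42.4 TPM against 6.66 TPM over all nuclear protein-coding genes. DNA copy number was not measured in these libraries.

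**Figure D2:**
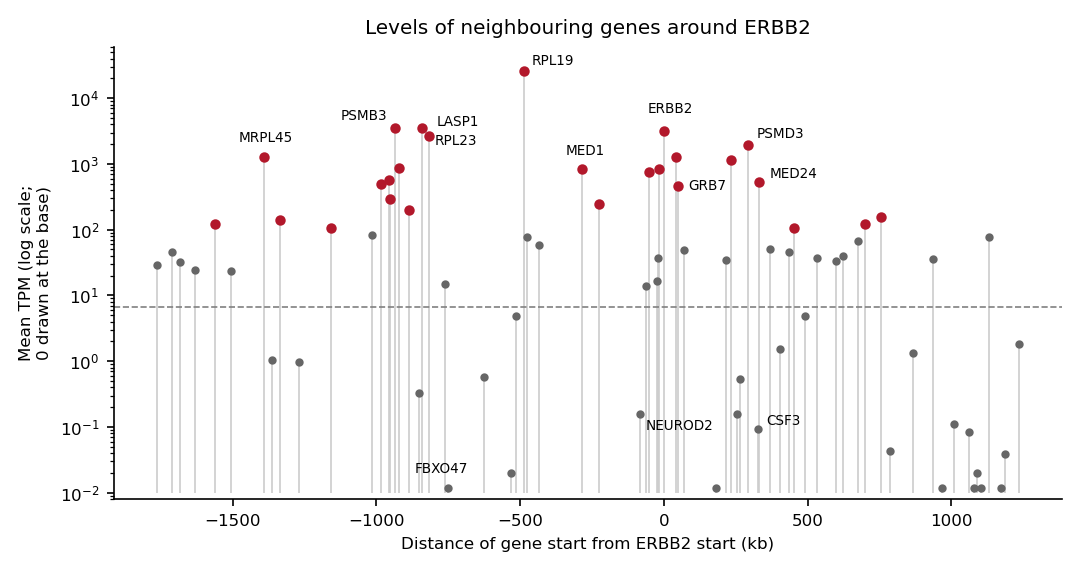
Mean TPM (log scale, genes at 0 drawn at the base) of each protein-coding gene against the distance of its start from the ERBB2 start in kb; red points are at 100 TPM or more, grey points are below, and the dashed line is the median of all nuclear protein-coding genes (6.66 TPM). RPL19, PSMB3, RPL23, ERBB2 and LASP1 lie above 2000 TPM, while NEUROD2, CSF3 and FBXO47 lie below 1 TPM.

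Subunits of the same complex are a yardstick, since they are usually made in similar amounts. The complexes were chosen after the values around ERBB2 had been seen. Among 48 proteasome genes the median was 114 TPM, and PSMB3 and PSMD3 were the 2 highest, 30.8 and 17.3 times that median, with PSMB5 next at 550.4 ± 10.3 TPM. Among 30 Mediator genes the median was 33.8 TPM, and MED1 and MED24 were the 2 highest at 24.6 and 15.6 times the median, with MED10 next at 142 ± 3.63 TPM. Among 78 mitochondrial ribosomal protein genes MRPL45 was the highest, 14.5 times the median of 87.7 TPM, with MRPL49 next at 464 ± 0.588 TPM. RPL19 and RPL23 ranked 1 and 3 of 84 ribosomal protein genes, whose median was 620.4 TPM, with RPL41 between them at 3589 ± 102 TPM. Within these chosen complexes, all 7 subunit genes of the window ranked in the top 3. The choice followed the values, so this order is only a description, and its cause was not tested. RNA polymerase II, respiratory complex I, the chaperonin and the exocyst with COPII have no gene in the window. Their highest subunits POLR2J, NDUFB7, CCT3 and SEC24C stood at 2.42, 5.3, 2.4 and 5.47 times the median.

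**Figure D3:**
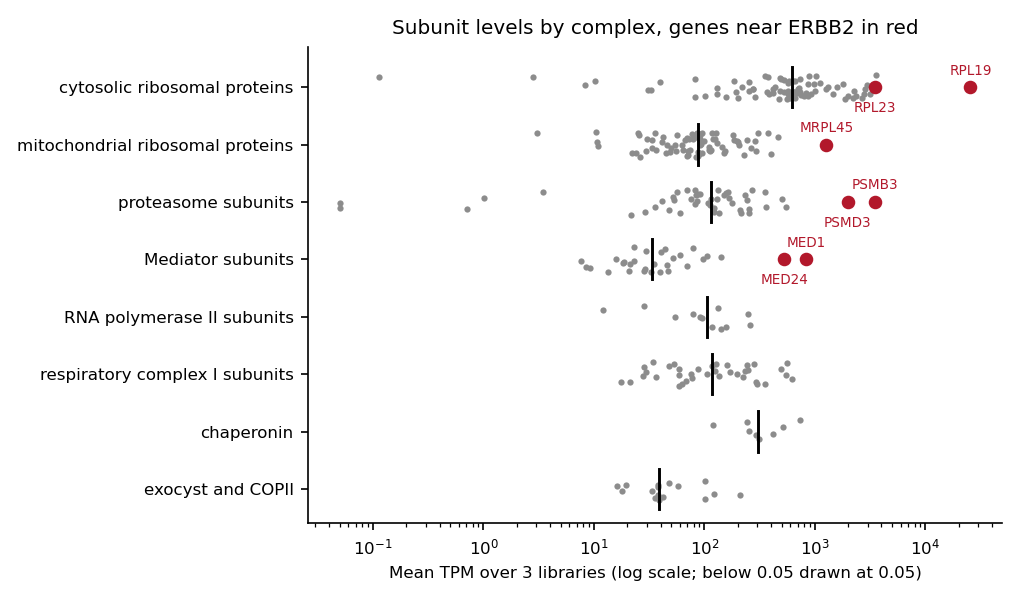
Mean TPM (log scale, values below 0.05 drawn at 0.05) of each subunit gene in 8 protein complexes or groups; grey points are genes elsewhere, red points are genes in the 50-gene window around ERBB2 and the black bar is the median of each group. The red points of the proteasome, Mediator and mitochondrial ribosome lie to the right of every grey point, and RPL19 lies to the right of all ribosomal protein genes.

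Most luminal genes were high. Of 32 genes listed, 30 were detected and the list median was 234 TPM against 6.66 TPM over all nuclear protein-coding genes. The lists were written with earlier results on these libraries known. KRT19 led at 3685 ± 43 TPM, followed by CD24, a glycoprotein of the cell surface, at 2134 ± 2.85 TPM and KRT8. Among the factors, XBP1, which drives secretory capacity, had 1454 ± 24.6 TPM, SPDEF, an ETS factor of secretory epithelium, had 1294 ± 7.1 TPM, FOXA1, the pioneer factor that opens chromatin for hormone receptors, had 769 ± 8.4 TPM and GATA3 had 501 ± 20.3 TPM. The ranges of these 4 factors over the libraries did not overlap. CDH1, the epithelial cadherin, had 531 ± 6.28 TPM. ELF5, a factor of alveolar progenitors, was far lower at 39.7 ± 1.36 TPM. The 2 listed genes below 1 CPM were KIT, a receptor of luminal progenitors, at 0.442 ± 0.0785 CPM and TFAP2B at 0.144 ± 0.0547 CPM, whereas its relatives TFAP2C and TFAP2A had 362 ± 5.3 and 47.9 ± 2.0 TPM.

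Basal and myoepithelial genes were mixed. Of 28 listed, 15 (53.6%) were detected, against 62.8% of all nuclear protein-coding genes, with a list median of 1.01 TPM. The defining keratins were nearly absent, with KRT5 at 0.424 ± 0.0421 CPM, KRT14 at 0.11 ± 0.0167 CPM and KRT17 at 0.236 ± 0.0557 CPM, and the contractile genes ACTA2 and CNN1 had 3 and 0 counts in all 3 libraries together. The highest members were SFN, a 14-3-3 protein of epithelia, at 73.5 ± 3.67 TPM, the laminin-receptor subunit ITGB4 at 35.1 ± 0.357 TPM, placental cadherin CDH3 at 25.3 ± 0.302 TPM and KRT6B at 13.6 ± 1.41 TPM. TP63, the basal master factor, was detected at 6.55, 6.21 and 6.56 CPM, and EGFR at 12.6 ± 0.407 TPM.

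Genes of other cell types were largely silent, and in a bulk sample few cells with much RNA and many cells with little cannot be told apart. Mesenchymal genes were detected in 6 of 25 cases: collagen COL1A1 at 29.3 ± 1.11 TPM, the factor TWIST1 at 19.6 ± 0.945 TPM, vimentin VIM at 16.7 ± 0.299 TPM, CDH2 at 2.25 ± 0.186 TPM, and COL5A1 and FN1 at 0.507 ± 0.0804 and 0.32 ± 0.0442 TPM. COL1A2, whose product pairs with that of COL1A1, had 3 counts in all, and PDGFRB, LUM, THY1, FAP, POSTN and MMP2 had none. Of 12 endothelial genes VWF (4.55 ± 0.0135 TPM) and ESAM (3.92 ± 0.556 TPM) were detected, with CDH5 and PECAM1 at 0.162 ± 0.0427 and 0.0335 ± 0.0131 CPM. Of 26 blood and immune genes only the lysosomal protein CD68 was, at 3.57 ± 0.44 CPM, and PTPRC, CD3E and CD3D had no count. No adipocyte gene of 8 and no intestinal gene of 12 was detected, ADIPOQ and CDX2 being at 0. CIDEC, the highest adipocyte gene, had 1.47 TPM but stayed below 1 CPM.

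Several single genes of foreign lineages stood high inside otherwise silent lists. Muscle genes were detected in 4 of 14 cases, led by ACTA1 at 252 ± 6.28 TPM and by the oxygen-binding protein myoglobin, MB, at 80.8, 85.9 and 81.8 CPM (156 ± 4.78 TPM), while MYOD1, MYOG, MYH2 and MYH7 had no count. No 50-base stretch of MB occurs in another gene's transcripts, and 1.81% of those of ACTA1 do. The others detected were ACTC1, at 6.94 ± 0.146 TPM, and the giant protein titin, TTN, at 0.145 TPM. Neuronal genes were detected in 5 of 20 cases, led by the tubulin TUBB3 at 422 ± 8.3 TPM, of whose 50-base stretches 33.4% are shared, and by the glutamate receptor subunit GRIN1 at 13.2 ± 0.319 TPM, with SYP, SYT1 and MAP2 between 1.02 ± 0.103 and 2.36 ± 0.252 TPM. Of 14 pluripotency genes SOX2 (25.2 ± 0.786 TPM) and KLF4 (30.7 ± 0.168 TPM) were detected and POU5F1 and NANOG were at 0.323 ± 0.0604 and 0.153 ± 0.0305 CPM. Liver genes above 1 CPM included SERPINA1, CYP2E1 and TF, with ALB at 0.118 ± 0.0605 CPM. Prostate and salivary genes above it included MSMB, TMPRSS2, ACP3 and AMY1A, between 5.77 ± 0.375 and 14.7 ± 0.745 TPM, while KLK2 and KLK3 had 3 and 1 counts. In the melanocyte list PMEL and MITF had 3.44 ± 0.139 and 1.74 ± 0.34 TPM and TYR and DCT were at 0.

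**Figure D4:**
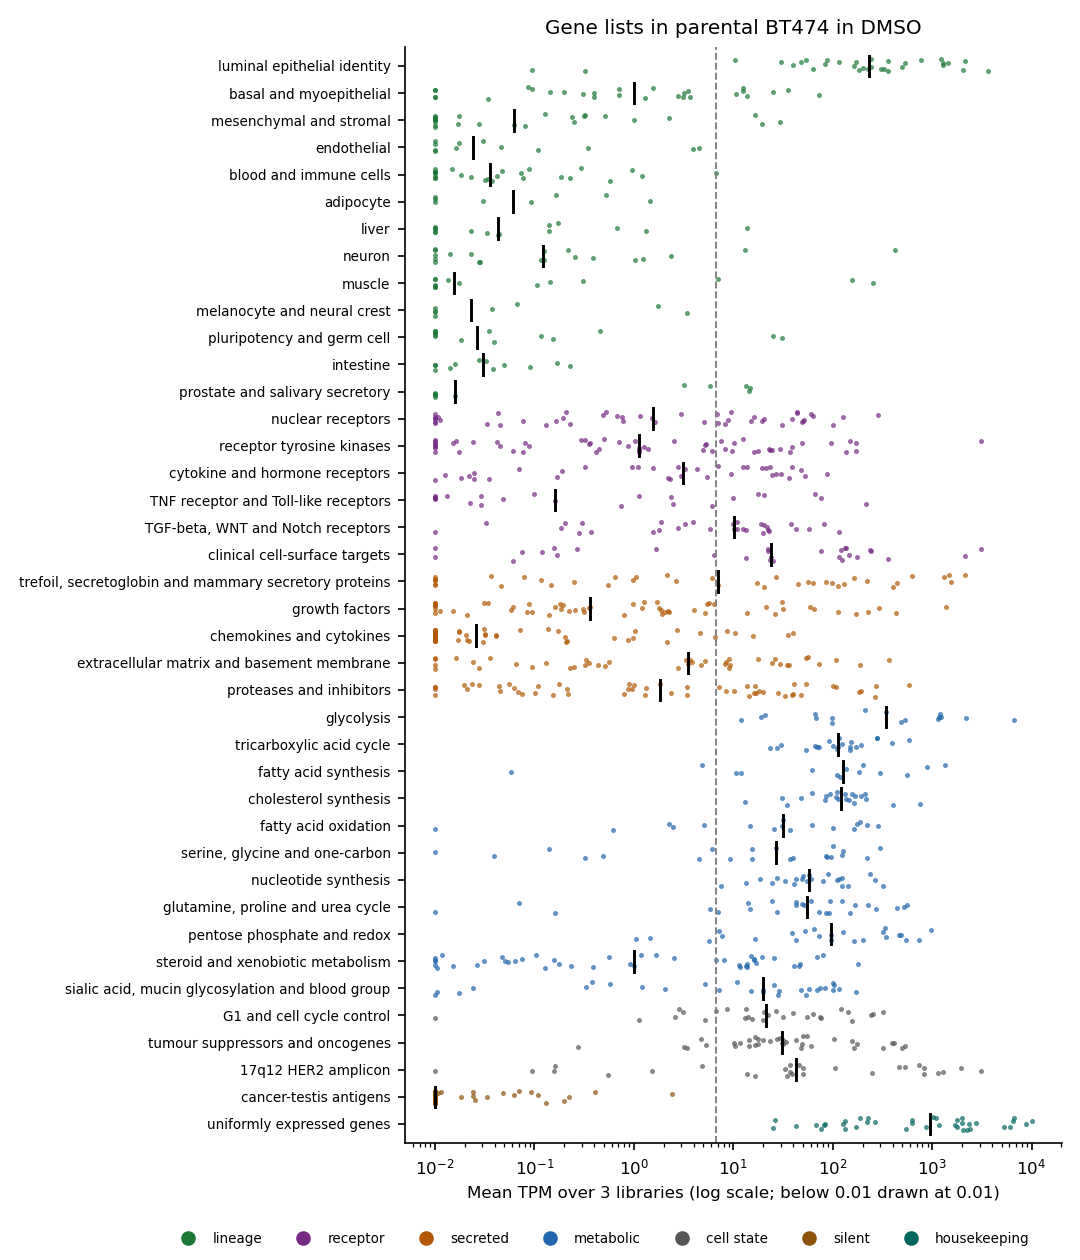
Mean TPM over the 3 libraries (log scale, values below 0.01 drawn at 0.01) of every member of 40 gene lists, coloured by section as in the legend; each point is a gene, the black bar is the list median and the dashed line is the median of all nuclear protein-coding genes (6.66 TPM). The luminal and core metabolic lists lie right of the line, and the lists of other cell types lie left of it apart from single genes such as TUBB3, ACTA1 and MB.

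Of 48 nuclear receptor genes 30 (62.5%) were detected, near the 62.8% of all nuclear protein-coding genes. Per length the highest was the orphan receptor NR2F6 at 286 ± 3.41 TPM, then ESRRA, a regulator of mitochondrial genes, at 128 ± 4.48 TPM and the vitamin D receptor VDR at 99.6 ± 0.611 TPM, and the ranges of these 3 did not overlap. Their partners and the lipid receptors followed: NR1H2 at 64 ± 2.26, RXRB at 60.0 ± 1.75, NR2F2 at 51.2 ± 1.17, THRA at 50.4 ± 1.33, PPARD at 49.6 ± 1.38, RXRA at 44.2 ± 0.532, NR1D2 at 43.8 ± 0.854 and RARA at 39.3 ± 1.4 TPM. Among steroid receptors PGR stood at 20.6, 20.4 and 20.5 TPM, above ESR1 at 8.79, 8.82 and 8.92 TPM, the glucocorticoid receptor NR3C1 at 4.81, 5.3 and 5.2 TPM and the mineralocorticoid receptor NR3C2 at 1.64, 1.78 and 1.43 TPM, with no overlap between neighbours in this order. ESR2, oestrogen receptor beta, was at 0.297 ± 0.0666 CPM. The immediate-early receptors NR4A1 and NR4A2 had 19.3 ± 0.822 and 6.79 ± 0.21 TPM and NR4A3 2 counts. RARG, NR2C1, THRB, NR1H3 and NR2C2 lay between 3.0 ± 0.0601 and 15.1 ± 0.478 TPM. NR1D1, RARB, RORA, NR6A1, ESRRG and PPARA were detected at or below 1.53 ± 0.0888 TPM. The adipocyte receptor PPARG, NR2F1, HNF4A, HNF4G, NR0B2, ESRRB, RXRG, NR5A2, NR2E3, NR1I3 and RORB stayed below 1 CPM, and NR1I2, NR1H4, NR2E1, NR5A1 and NR0B1 had no count.

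The 4 ErbB receptors differed by orders of magnitude. ERBB2 stood at 3152, 3134 and 3126 TPM, ERBB3, the kinase-impaired partner that recruits PI3K, at 135, 135 and 139 TPM, EGFR at 12.2, 12.6 and 13 TPM and ERBB4 at 0.832, 0.734 and 1.05 TPM, with no overlap. Of 58 receptor tyrosine kinases 34 (58.6%) were detected, near the 62.8% of all nuclear protein-coding genes. After ERBB2 the highest were FGFR4 (172 ± 1.57 TPM), the collagen receptor DDR1 (170.1 ± 0.287 TPM) and the ephrin receptor EPHB4 (148 ± 2.46 TPM). The ranges of FGFR4 and DDR1 overlapped. RET, the GDNF-family receptor, had 49.1 ± 1.02 TPM and MET 23.2 ± 0.31 TPM, while INSRR, PDGFRB, ROS1 and TEK were at 0. Of the ErbB ligands, AREG, TGFA and EGF had 5.69 ± 1.06, 5.43 ± 0.50 and 4.0 ± 0.265 TPM, BTC and NRG3 had 1.73 ± 0.254 and 1.27 ± 0.266 TPM, HBEGF and EREG were below 1 CPM, and NRG1, a ligand of ERBB3 and ERBB4, had no count.

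The detected shares of other receptor groups are set against 62.8% of all nuclear protein-coding genes. Of 36 cytokine and hormone receptors 24 (66.7%) were detected, led by the prolactin receptor PRLR at 279, 279.7 and 285 CPM (87.3 ± 0.864 TPM), then IL17RC, IFNGR2 and IL13RA1 between 38.8 ± 0.285 and 53.2 ± 1.02 TPM. Of 23 TNF and Toll-like receptors 11 (47.8%) were detected, with the TWEAK receptor TNFRSF12A at 218 ± 4.85 TPM, TNFRSF1A at 76.3 ± 1.01 TPM, LTBR at 65.8 ± 0.748 TPM and TNFRSF19 at 20.3 ± 0.87 TPM. The death receptor FAS had 6 counts in all, and CD40, TLR1, TLR7 and TLR8 had none. Of 31 TGF-beta, WNT and Notch receptors 25 (80.6%) were detected, NOTCH3 at 116 ± 1.97 TPM, LRP5 at 81.9 ± 2.15 TPM, NOTCH2 at 58 ± 0.163 TPM and TGFBR1 at 42.4 ± 0.293 TPM. Among 29 surface proteins that are drug targets, 21 (72.4%) were detected, with EPCAM at 357 ± 3.39 TPM and CEACAM6 at 243 ± 3.77 TPM among them. FOLR1, MSLN and the checkpoint ligand CD274 were at 0.0678 ± 0.0396, 0.0742 ± 0.0873 and 0.0754 ± 0.0659 CPM, and PDCD1LG2 was at 0.

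Secreted proteins of breast and mucosal epithelium were split between very high and silent genes. Of 39 listed, 21 (53.8%) were detected, against 62.8% of all nuclear protein-coding genes, and 6 had no count. TCN1, a vitamin B12 carrier of mucosal secretions, had 829, 826 and 845 CPM and 2139 ± 26.5 TPM. The trefoil peptides TFF3 and TFF1, which protect mucosa, had 1549.7 ± 43.6 and 1325 ± 11.9 TPM, and AGR2, a disulfide isomerase for mucins, had 1495 ± 19.6 TPM. PIP, prolactin-induced protein, had 88.4, 92.5 and 92 CPM (633 ± 13.9 TPM), the secretoglobins SCGB1D2 and SCGB2A2 (lipophilin B and mammaglobin A) had 444 ± 6.81 and 223 ± 10.4 TPM, and MUCL1, a small breast mucin, had 405 ± 4.91 TPM. Milk proteins were silent: CSN1S1, CSN2, CSN3 and LALBA had no count, while PRLR and ELF5 were detected. The uteroglobin gene SCGB1A1 was also at 0, and WFDC2, LTF and APOD were below 1 CPM.

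Promoters of 4 high secreted genes and of 2 silent milk protein genes are shown because most of their starts are poor in CG whatever the level. Each is again the 150 bases before the RefSeq start (GRCh38.p14), 5′ to 3′ on the gene's strand, with CG dinucleotides in capitals. They lie at chr11:59866488-59866637 (minus), chr7:16805000-16805149 (minus), chr7:143131927-143132076 (plus), chr11:62270008-62270157 (plus), chr4:69965729-69965878 (minus) and chr12:48571846-48571995 (minus).
TCN1: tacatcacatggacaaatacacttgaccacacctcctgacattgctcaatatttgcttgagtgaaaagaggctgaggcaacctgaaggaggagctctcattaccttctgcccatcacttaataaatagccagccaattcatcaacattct
AGR2: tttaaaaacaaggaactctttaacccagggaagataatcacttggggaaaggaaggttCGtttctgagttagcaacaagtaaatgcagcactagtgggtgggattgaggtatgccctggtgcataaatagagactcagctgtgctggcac
PIP: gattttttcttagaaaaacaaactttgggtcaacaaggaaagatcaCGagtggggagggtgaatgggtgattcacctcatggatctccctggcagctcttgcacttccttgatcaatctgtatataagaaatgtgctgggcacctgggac
SCGB2A2: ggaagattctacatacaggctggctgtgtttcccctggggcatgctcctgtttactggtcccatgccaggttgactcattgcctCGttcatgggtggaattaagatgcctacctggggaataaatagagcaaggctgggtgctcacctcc
CSN2: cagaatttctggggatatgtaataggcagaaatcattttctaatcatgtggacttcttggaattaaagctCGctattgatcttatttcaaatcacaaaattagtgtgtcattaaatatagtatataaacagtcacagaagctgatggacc
LALBA: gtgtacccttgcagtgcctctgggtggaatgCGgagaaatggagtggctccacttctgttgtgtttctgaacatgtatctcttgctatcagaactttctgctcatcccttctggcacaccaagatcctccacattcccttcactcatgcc
TCN1 held 0 CG dinucleotides in this stretch and each of the other 5 held 1, while CSN2 alone held the letters TATAAA, starting 28 bases before the start.

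Among growth factors 26 of 59 (44.1%) were detected, against 62.8% of all nuclear protein-coding genes. Midkine, MDK, a heparin-binding factor, had 777, 739 and 722 CPM and 1383 ± 55.1 TPM, BMP7 had 436 ± 6.03 TPM, HDGF 291 ± 6.06 TPM and INHBB, the activin and inhibin beta B chain, 226 ± 4.82 TPM. PTN, the sister gene of MDK, had no count, nor had FGF2, FGF19, IGF2, INS, BMP2 and CSF2. Cytokines and chemokines were the emptiest secreted group, with 9 of 50 (18%) detected and 19 at 0. The highest were the mucosal chemokine CXCL17 (39.8 ± 2.64 TPM), the membrane-bound chemokine CX3CL1 (35.9 ± 0.836 TPM), TNFSF15 (15.7 ± 0.495 TPM) and CXCL14 (10.4 ± 0.679 TPM), while IL6, CXCL8 and TNF had 1, 2 and 1 counts over all libraries. Of 43 matrix genes 29 (67.4%) were detected, near the share of all genes. They were led by the cell-surface proteoglycans SDC1 (369.7 ± 1.0 TPM) and SDC4 (188 ± 2.89 TPM), by agrin, AGRN (107 ± 0.763 TPM), and by tenascin C, TNC (72.4 ± 0.821 TPM). Basement membrane collagen IV was nearly absent, COL4A1 and COL4A2 being at 0.0244 ± 0.0422 and 1.09 ± 0.219 CPM, but the laminin chains LAMA5, LAMB1, LAMB2 and LAMC1 lay between 17.9 ± 0.671 and 57 ± 1.28 TPM. Of 55 proteases and inhibitors 32 (58.2%) were detected, also near that share. Inhibitors of the serine proteases of epithelia headed them, SPINT2 at 587 ± 6.07 TPM and SPINT1 at 269.9 ± 1.75 TPM. Cathepsin D, CTSD, at 264 ± 8.88 TPM and prostasin, PRSS8, at 194 ± 0.767 TPM came next. MMP2, MMP3 and MMP7 were at 0.

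Core metabolic genes of the lists were nearly all detected, against 62.8% of all nuclear protein-coding genes. The lists were written with earlier results on these libraries known. Isozymes such as PKLR (0.0648 ± 0.0305 TPM) are not in the glycolysis list, so full detection partly reflects the choice of members. All 17 glycolysis genes, all 22 tricarboxylic acid cycle genes, all 22 cholesterol synthesis genes and all 23 nucleotide synthesis genes were detected, with medians of 342, 114, 123 and 58.2 TPM. Fatty acid synthesis had 13 of 14 genes detected and a median of 128 TPM, with the desaturase SCD at 1799, 1754 and 1765 CPM (1346 ± 21.2 TPM), fatty acid synthase FASN at 2056, 2052 and 2044 CPM (892 ± 4.17 TPM), the desaturase FADS2 at 558 ± 2.85 TPM and the citrate lyase ACLY at 296 ± 3.06 TPM. THRSP, a lipogenic factor of liver, had 2 counts. Fatty acid oxidation was lower, with 15 of 17 detected and a median of 31.5 TPM, led by ECHS1 (287 ± 4.68 TPM) and ACADVL (224 ± 1.07 TPM). In cholesterol synthesis the synthase HMGCS1 had 409 ± 3.45 TPM.

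In amino acid metabolism MAT2A, which makes S-adenosylmethionine, had 301 ± 4.49 TPM, and the serine pathway enzymes PSAT1, PSPH and PHGDH had 222 ± 5.27, 100.3 ± 1.96 and 96.3 ± 0.981 TPM. The proline enzyme PYCR1 had 523 ± 6.89 TPM and spermine synthase SMS 562 ± 5.17 TPM, while the urea cycle genes CPS1, ARG1 and OTC were below 1 CPM, OTC at 0. Of 24 pentose phosphate and redox genes 23 were detected, with the peroxiredoxins PRDX1 and PRDX2 at 965 ± 25.3 and 731 ± 11 TPM. The cystine transporter SLC7A11 was low at 2.58, 2.79 and 2.09 CPM. Drug and steroid metabolism had 21 of 45 genes (46.7%) detected, against 62.8% of all nuclear protein-coding genes. HSD17B8 had 79.2 ± 1.66 TPM, CYP1A1 68.8 ± 1.52 TPM and steroid sulfatase, STS, 47.2 ± 0.894 TPM. The glutathione transferase GSTP1 had 19, 12 and 20 counts, or 0.431 ± 0.105 CPM, none of whose 50-base stretches occurs in another gene. Aromatase (CYP19A1), HSD3B1 and CYP11A1, the enzymes of oestrogen and steroid production, were at 0.

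Within 51 families of related enzymes, transporters and kinases, the leading member held over 90% of the family's summed TPM in 19 and under 50% in 9. The lead was outside the spread of the runner-up in 48. PKM held nearly all pyruvate kinase, at 1218 ± 20.6 TPM against 0.0648 ± 0.0305 TPM for PKLR. Aldolase was ALDOA (98.7% ± 0.0532), enolase ENO1 (98.1%), lactate dehydrogenase LDHA (97.2%), acetyl-CoA carboxylase ACACA (99.6%), glycogen phosphorylase PYGB (99.6%), carnitine palmitoyltransferase CPT1A (99.6%) and D-type cyclin CCND1 (94%). LDHB, the heart-type lactate dehydrogenase, had 11.9 ± 0.983 TPM beside 491 ± 5.59 TPM for LDHA. The leading hexose transporter was SLC2A10 at 205, 206 and 207 TPM, above SLC2A1 (GLUT1) at 69.9, 66.6 and 65.1 TPM, with no overlap.

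Other leaders were HK1 over HK2 (211 ± 1.87 and 66.1 ± 0.759 TPM), PDK3 over PDK2 (56.6 ± 1.13 and 28.4 ± 0.993 TPM), IDH2 over IDH1 (583 ± 6.47 and 117 ± 3.83 TPM), ALDH3B2 over ALDH3A2 (1451 ± 12.2 and 51.1 ± 1.89 TPM), ACSL1 over ACSL3 (187 ± 3.86 and 118 ± 3.15 TPM) PRDX5 over PRDX1 (1793 ± 8.18 and 965 ± 25.3 TPM), TUBB over TUBB4B (2002 ± 16.8 and 1473 ± 13.9 TPM) and SLC25A6 over SLC25A5 (1598 ± 19.8 and 802 ± 19.8 TPM). Among signalling kinases AKT1 led AKT2 (176 ± 1.09 and 47.8 ± 0.521 TPM) and PIK3CB led PIK3CA (32.4 ± 0.611 and 10.2 ± 0.228 TPM). In RAS, NRAS led HRAS (104 ± 1.53 and 55.6 ± 3.19 TPM). The ranges overlapped for PFKP and PFKL (98.9 ± 1.42 and 98 ± 1.04 TPM), for the carbonic anhydrases CA5B and CA12 (27.1 ± 0.428 and 26.4 ± 0.914 TPM) and for MYCN and MYCL (14.1 ± 1.4 and 13.5 ± 0.0416 TPM), so no leader is given there, and MYC itself had 13.2 ± 1.28 TPM. CKMT1A and CKMT1B (82.6 ± 2.38 and 71.1 ± 1.99 TPM) share 66.7% of the 50-base stretches of CKMT1A, so their order is uncertain. With the longest transcript as length, GPX4 took the lead from GPX1, SLC7A8 from SLC7A5 and MYCL from MYCN.

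Listed cell-cycle and growth-control genes were nearly all detected, against 62.8% of all nuclear protein-coding genes. Of 28 G1 and cell-cycle genes 27 were detected, CCND1 at 324 ± 4.05 TPM, the mitotic kinase AURKA at 255 ± 0.43 TPM, CDK4 at 245 ± 1.58 TPM and the CDK inhibitor CDKN1B at 157 ± 5.72 TPM. CCND2 was the exception with 2 counts in all, and CDKN2A was low at 1.19 ± 0.19 CPM. Of 37 cancer genes 36 were detected. The highest after CDH1 and GATA3 were BCAS1 (414 ± 3.68 TPM), a gene of 20q13 amplified in breast cancers, and the survival factor MCL1 (398 ± 5.83 TPM). RB1 had 31.6 ± 0.578 TPM and BCL2 had 3.17 ± 0.0702 TPM.

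Large families of restricted genes were silent apart from a few members. Of 374 olfactory receptor genes 4 reached 1 CPM and 324 had no count. The members above it were OR1J2 at 3.53, 3.05 and 3.46 CPM, OR1Q1 at 2.26, 2.06 and 2.14 CPM, OR10J1 at 2.85, 2.98 and 3.1 CPM and OR2A4 at 1.7, 1.28 and 1.91 CPM, of whose 50-base stretches 93.4% are shared with another gene. No late cornified envelope gene of 18 had a count, nor had 70 of 92 hair keratin-associated genes, 21 of 22 interferon genes and 36 of 42 beta-defensins. None of these reached 1 CPM except the beta-defensin DEFB132, at 1.73, 1.75 and 1.68 CPM. None of 19 UDP-glucuronosyltransferases or 10 voltage-gated sodium channels was detected. Of 42 cancer-testis antigens only MAGEC1 was, at 2.26, 2.74 and 2.58 CPM, and 24 had no count, among them CTAG1B, MAGEA3 and MAGEA4. Within the wider MAGE family the ubiquitous member MAGED2 stood at 1289 ± 28 TPM. Broad families were the opposite case, with 451 of 527 ZNF genes and all 78 mitochondrial ribosomal protein genes detected. The share over all nuclear protein-coding genes was 62.8%.

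Developmental factor families were detected in part, and their counts are to be read beside 62.8% of all nuclear protein-coding genes. Of 39 HOX genes 14 (35.9%) were detected, led by HOXB7 (209.7 ± 1.76 TPM), HOXB13 (92 ± 2.02 TPM) and HOXC10 (86.1 ± 3.13 TPM). Of 6 GATA genes 4 (66.7%) were detected. Beside GATA3, GATA2 had 68.1 ± 1.16 TPM, GATA6 19.1 TPM and GATA4 15.7 TPM. TBX3 had 156 ± 1.04 TPM. Of 19 SOX genes 9 (47.4%) were detected, and SOX12, SOX4, SOX13 and SOX15 lay between 71.9 ± 1.42 and 90.7 ± 0.95 TPM. Keratins were detected in 13 of 55 cases, with KRT7 at 1235 ± 21.4 TPM and then a gap down to KRT10 at 78.3 ± 0.619 TPM. The S100 proteins S100A16, S100A6, S100A14 and S100A11 lay between 1609 ± 12.9 and 2514 ± 12 TPM.

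A listed 0 is not always silence. EIF4A1, a helicase of translation initiation that cells need to grow, was at 0 in every library, as was SENP3-EIF4A1, the annotated read-through gene that contains it, and 41% of its 50-base stretches occur in other annotated transcripts. MIF, another ubiquitous gene, was also at 0, and 57.5% of its stretches are shared, mostly with the antisense gene MIF-AS1, which had 1.34 ± 0.409 CPM, and an unstranded kit cannot tell the pair apart. Some ribosomal protein genes that overlap a read-through gene were present but far below their family: RPL17 at 39.4 ± 0.892 TPM, RPS10 at 33 ± 0.878 TPM and RPL36A at 2.81 ± 0.289 TPM, with RPL17-C18orf32, RPS10-NUDT3 and RPL36A-HNRNPH2 at 0. The part that shared sequence has in these values was not tested. These genes were singled out after their values were seen, and any single 0 above is to be read with them in mind.

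Along the genome, the windows of 50 protein-coding genes with the highest median level lay on chromosome 9 from DPM2 to NCS1 (87.9 TPM), chromosome 11 from COX8A to MRPL49 (85.9 TPM), chromosome 17 around ERBB2 (80.7 TPM) and chromosome 1 from S100A6 to EFNA4 (80.2 TPM). The window around ERBB2 summed to 51109 TPM, against 6289.6, 13164 and 15946 TPM in the other 3, and RPL19 held 25554 ± 1251 TPM of its sum. Chromosome 17 carried 13% of the protein-coding TPM with 5.92% of the genes, and 13 of the 100 highest genes, against 14 on chromosome 12 and 12 on chromosome 11. On chromosome 20, 97 of 523 genes stood at 100 TPM or more, against 1801 of all 19053 nuclear protein-coding genes. Windows with a median of 0 included an olfactory receptor cluster on chromosome 11 from OR4C13 to OR9G4, where no gene had a count, the epidermal cluster on chromosome 1 from TCHHL1 to S100A7 (9.93 TPM in all) and the keratin and keratin-associated cluster on chromosome 17 from KRT222 to KRT37 (82.3 TPM).

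Promoter sequence differed between level classes, described across genes that are not independent replicates. RefSeq windows of 250 bases before to 50 bases after the start were matched for 15069 of 19053 nuclear protein-coding genes. CpG observed over expected, which is low where CG has been lost through methylation in the germ line, had a median of 0.329 in genes under 0.1 TPM, 0.612 from 0.1 to 1 TPM, 0.789 from 1 to 10 TPM and 0.86 from 10 to 100 TPM. Above that it levelled off, at 0.868 and 0.878 in the highest 2 classes. The letters TATAAA on either strand occurred in 18.5% of promoters under 0.1 TPM, 4.53% from 10 to 100 TPM and 11.6% at 1000 TPM or more, and in 9.54% of all. The share was thus lowest in the middle of the scale.

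Searches on both strands gave GGGCGG, the GC box, in 33.6% of promoters of the lowest class and 72.8% from 100 to 1000 TPM (59.5% of all). CCGGAAG, a core of ETS factor sites, was in 3.42% and 24.3% (14.5% of all). CCAAT differed little, with 36.7% and 38% (36.6% of all). The motif of GATA3 and its relatives, searched as AGATAA, and that of forkhead factors, searched as TGTTTAC, were commoner in the lowest class, at 14.7% and 3.37%, than from 100 to 1000 TPM, at 3.64% and 1.85% (7.48% and 2.6% of all). GCCNNNGGC, an AP-2-type motif, was in 28.6% of all promoters and TGACGTCA, a CREB-type motif, in 2.63%. GC-rich motifs move with base composition, whose median was 53.7% GC in the lowest class and 65.7% from 100 to 1000 TPM. A match is a description of letters and not a bound site.

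**Figure D5:**
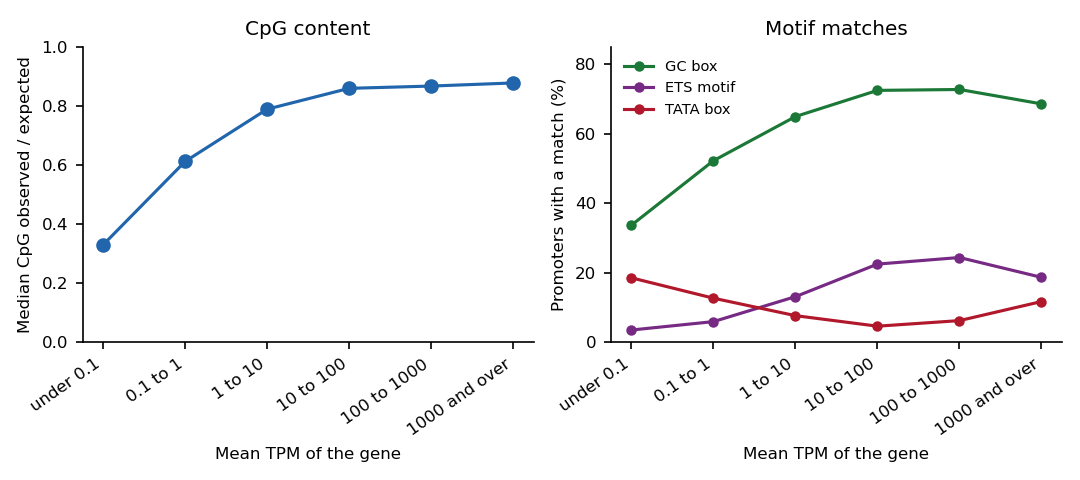
Left, median CpG observed over expected of RefSeq promoter windows, and right, percent of windows with a match on either strand to the GC box (GGGCGG), an ETS motif (CCGGAAG) and the TATA box (TATAAA), each by class of mean TPM of the gene. CpG content goes from 0.329 in the lowest class to 0.878 in the highest, while the share with TATAAA is lowest from 10 to 100 TPM.

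A promoter window was counted as CpG-rich above 0.6, which 66.9% of all windows were. Of 31 detected uniformly expressed genes with a window, 30 were CpG-rich, and of 16 cholesterol synthesis genes all were. Of 17 detected luminal genes with a window only 6 were, and of 14 detected secretory genes 3 were, with a median of 0.218. Other lists also lay below the share of all windows, among them steroid and xenobiotic metabolism with 6 of 16 detected genes, basal genes with 3 of 8 and chemokines and cytokines with 2 of 6. Of the high secreted genes shown above, TCN1 had 0.0734, PIP 0.198, SCGB2A2 0.311 and AGR2 0.42, and the silent LALBA and CSN2 had 0.134 and 0.216. ERBB2, RPL19, PSMB3 and PSMD3 had 0.873, 0.861, 0.781 and 0.763. NEUROD2, silent beside ERBB2, had a CpG-rich window too (0.809).

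Over 10827 genes at 5 CPM or more the median coefficient of variation (SD over mean of the 3 libraries) was 2.56%, and 167 genes exceeded 10%. Below 100 CPM the median variance was 0.82 to 1.04 times the mean count. It was 1.54 times from 100 to 1000 CPM and 10.0 times above 1000 CPM. Counting error alone gives a ratio of 1 on average, but with 3 libraries the median of that ratio lies below 1. The medians below 100 CPM therefore do not show that the spread is counting error only. The genes with the most excess were mitochondrial mRNAs, RPL19 and abundant small or nuclear RNAs. The cytochrome oxidase gene COX2 had 3951, 3552 and 3360.1 CPM and ATP6 1532, 1352 and 1258 CPM, and COX1, COX3, ND4 and RPL19 (11607, 10977 and 10577 CPM) shared that order, highest in replicate 1 and lowest in replicate 3. RN7SL1, RN7SL2 and RN7SK, RNAs without a poly(A) tail, were instead highest in replicate 3, RN7SK with 15, 11.7 and 35.9 CPM and RN7SL2 with 45.3, 35.4 and 82.2 CPM, as was the mitochondrial ribosomal RNA RNR1 with 1194, 1195 and 1393 CPM. The part that RNA selection or quality has in this was not tested. Of the markers, ERBB2 varied by 0.242%, KRT8 by 0.0879%, PGR by 0.377%, ESR1 by 0.908% and KRT18 by 1.42%.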

How the data were processed

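RNA of the 3 parental DMSO libraries was sequenced as single reads of 50 bases after the TruSeq RNA v2 kit, which selects poly(A) RNA and does not mark strand, per the labels' protocols. The table holds raw counts of reads per gene, deposited by the authors. FastQC 0.11.7, STAR 2.7.9, edgeR 3.40.2 and GRCh38 (hg38) are named in the submitters' processing notes, and the counting program, its annotation and its strand setting are not given in the sources used here.

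Lines without a gene symbol (581, 0.0877% to 0.0910% of counts) were left out. Counts were divided by library totals (CPM) and, for 23684 genes with an exon union of at least 200 bases in GENCODE 29, by that length (TPM). Genes without a length held 3.39% of counts. Of 27814 named genes, 26159 matched GENCODE. The libraries were compared pairwise by a chi-square of counts, which gave 1.65 to 2.83 per degree of freedom, so none was a copy of another. Promoters came from RefSeq (GRCh38.p14). The calculation of levels and spread was tested on simulated counts.

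Genes were named by rule: the 5 markers, the 20 highest genes, the 4 highest of each list or family, members at 1 CPM or more in silent lists, all nuclear and ErbB receptors, the leading 2 of each enzyme family, the 10 with most excess spread and defining markers without a count. Some genes that the rule names are not reported here. Other named genes were chosen after their values were seen. Lists and members were chosen with earlier results of these data known. Alternatives were scaling by TMM (edgeR 4.0.16, R 4.3.3) or DESeq2 1.42.0 size factors, transcript length, detection threshold, window size and leaving out each replicate.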

Additional observations from a re-analysis of the deposited data

How the results depend on the processing

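No paired analysis was possible because the values come from no test and describe 1 group. The number of detected genes stayed between 10827 and 14006 over all thresholds and scalings, against 13094. The 100 highest genes held 20.1% of counts without mitochondrially encoded genes and 17.2% when ranked by TPM, against 21.4%. The highest window median was 202 TPM with 25 genes per window, around ERBB2 from MLLT6 to PGAP3, and 166 TPM over detected genes only, on chromosome 20 from SLC13A3 to GNAS, against 87.9 TPM on chromosome 9, so which window leads depends on both choices. The median CpG content of the lowest class was 0.319 with classes by CPM and 0.264 for genes without a count, against 0.329, and 0.329 to 0.333 with each replicate left out. The median coefficient of variation was 5.67% over all genes with a count, against 2.56%, and 1.9% to 2.22% between pairs of libraries. The leader of 44 of 51 enzyme families was unchanged without a length correction, and that of 48 with the longest transcript as length. The same number of lists, 19, lay above the median of all genes under each alternative run, but over the genes that pass filterByExpr, whose median is 21.5 TPM, only 39 of 41 lists kept their side. Genes under about 1 CPM rest on few reads and their order is not resolved at this depth.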

Other observations

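Further families of surface and transport genes were uneven. Their detected counts are to be read beside the 62.8% of all nuclear protein-coding genes that were detected. Of 24 claudins, the proteins of tight junctions, 8 were detected, and CLDN4, CLDN7 and CLDN3 had 332 ± 5.42, 307 ± 7.3 and 243 ± 3.51 TPM before a drop to CLDN12 at 14.5 ± 0.381 TPM. Of 27 integrins 13 were detected, led by ITGB1 at 281 ± 4.45 TPM and ITGA3 at 88.3 ± 0.697 TPM. Of 18 mucins 5 were, with the membrane mucin MUC1 at 114 ± 3.13 TPM ahead of the gastric mucin MUC6 at 46.4 ± 4.45 TPM. Among tetraspanins TSPAN13 had 753 ± 7.85 TPM and TSPAN15 439 ± 4.68 TPM. Of 56 cytochrome P450 genes 17 were detected, CYP51A1 of sterol synthesis leading at 108 ± 2.46 TPM.

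The long non-coding RNAs with the most counts were MALAT1 at 563, 503 and 637 CPM, NORAD at 532, 534 and 545 CPM and NEAT1 at 437, 437 and 440.0 CPM, of which MALAT1 varied most between libraries. Pseudogenes took 1.68% of counts, and RPL23P8, a short processed copy of RPL23, had 1014, 957 and 949 CPM. Per length RPL23P8 stood at 9259.9 ± 353 TPM and RPL23 at 3473 ± 102 TPM, and the exon union of RPL23 is 5979 bases against 428 for the copy. How the counting split reads between gene and copy was not tested, and the level of RPL23 is uncertain to that extent.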
